A study of Mus musculus with 4 samples.

Results

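The genes described here encode the ephrins and their Eph receptors, the semaphorins with their neuropilin and plexin receptors, the netrins, and the Slits with their Robo receptors. Members were taken by gene symbol (Efna and Efnb, Epha and Ephb, Sema3 to Sema7, Nrp1 and Nrp2, Plxna to Plxnd, Ntn, Slit and Robo), and 64 of the 24346 genes in the files matched. Their levels were compared between 2 libraries of primary cells cultured from the vestibular part of the mouse inner ear, which senses head movement, and 2 of primary cells cultured from the cochlea, which senses sound. No treatment, strain, age or genotype is given for either group, and nothing says whether the libraries of a group came from separate cultures or animals. The p-values therefore measure only the spread between these libraries. Part of it may be technical, and it includes the differences in cell type markers given below.

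These proteins are short-range or diffusible cues that attract or repel cells and growing axons, or receptors that read such cues. Ephrins are held in the membrane, by a lipid anchor (ephrin-A) or a transmembrane segment (ephrin-B), and signal on contact to Eph receptor tyrosine kinases and back into the ephrin-bearing cell. Class 3 semaphorins are secreted and mostly act through a neuropilin paired with a plexin, whereas most other vertebrate semaphorins are membrane proteins that bind plexins directly. Netrins are laminin-related proteins read by Dcc, neogenin and Unc5 receptors, and Slits repel cells that carry Robo receptors. In the developing inner ear, members of these families shape the path of nerve fibres and the boundaries between cell groups.

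The values were FPKM (fragments divided by transcript length and by the size of the library), so levels can be compared between genes. Pairs of values are given for library 1 and then library 2 of a group, vestibular first. Summed FPKM ran from 479380 to 519122 over the 4 libraries, and the files hold no fragment counts. Hair cell markers were low in the cultures: Atoh1 was at most 0.1001 FPKM, Otof at most 1.63, and only Myo7a exceeded 5 FPKM, at 5.81 to 13.4. Of 7 endothelial markers, Pecam1, Tie1 and Cldn5 were at most 0.155, 0.0769 and 0 FPKM, while Cdh5 reached 10.7 FPKM in vestibular 2 and Emcn stood at 14.5 and 34.3 against 112 and 287 FPKM, so that the list summed to 22.1 and 48.7 against 115 and 296. Libraries of a group differed in the levels of cell type markers. The summed FPKM of 12 epithelial markers was 1041 and 108 in vestibular against 2025 and 2415 in cochlear cultures, with the cochlear values above for 11 of the 12. That of 10 macrophage markers was 7882 and 6085 against 6054 and 22.8, and that of 6 cartilage markers was 735 and 3570 against 199 and 199. For 10 fibroblast markers the sum was 2796 and 6183 against 1341 and 869, with the vestibular values above for 8, and for 8 supporting cell markers it was 26.2 and 40.7 against 474 and 925. The last list was not of one direction, since 3 of its 8 genes had all cochlear values above (Epyc, Gata3 and Otoa) and 3 had the reverse. In bulk RNA, fewer cells of a type and less RNA per cell cannot be told apart.

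Of the 64 members, 48 had a mean of at least 1 FPKM over the 4 libraries and were tested, and 16 were not. Plxna4 reached this level through its vestibular values alone. None of the 48 passed a Benjamini-Hochberg adjusted p of 0.05 in limma over all 13200 genes tested, where 4 genes (0.0303%) passed, and the lowest adjusted p of a member was 0.0914, for Slit3. At an unadjusted limma p under 0.05 there were 10 members (20.8%), against 18.2% of all genes. Of these, 7 were higher in vestibular cultures (14.6%, against 7.61% of all genes) and 3 were higher in cochlear cultures (6.25%, against 10.6%). All vestibular values exceeded all cochlear values for 14 members (29.2%, against 26.9% of all genes) and the reverse held for 11 (22.9%, against 28.4%), so 25 members (52.1%, against 55.3%) had groups that did not overlap. A difference of at least 1 on the log2(FPKM + 1) scale, on which all differences below are given as vestibular minus cochlear, was found for 11 members (22.9%, against 13.0%). This scale understates the difference of low genes. The median difference was -0.03 over the members and 0.01 over all genes. Leaving out 1 library changed these counts and the shares over all genes with them. Members with a p under 0.05 and a higher vestibular level numbered 10 (20.8%, against 9.50% of all genes) without vestibular 1, 5 (10.4%, against 5.17%) without vestibular 2, 7 (14.6%, against 8.01%) without cochlear 1 and 3 (6.25%, against 2.86%) without cochlear 2. Members with a higher cochlear level numbered 6 (12.5%, against 11.1%) and 7 (14.6%, against 8.17%) without vestibular 1 and 2, and 1 (2.08%, against 6.45% and 4.85%) without cochlear 1 and without cochlear 2. With 2 libraries against 2, an exact permutation test cannot give a p below 0.333 for a gene.

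**Figure D1:**
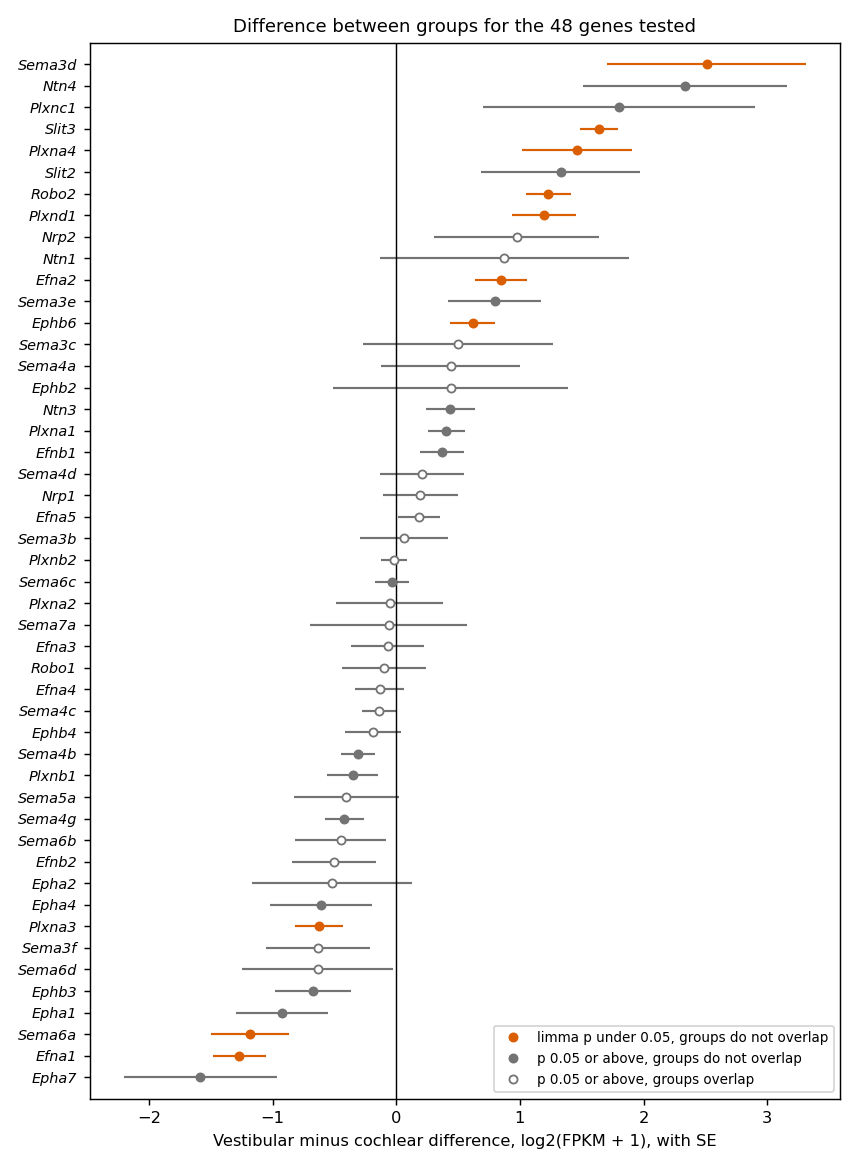
Vestibular minus cochlear difference on the log2(FPKM + 1) scale for the 48 genes tested, with bars of 1 standard error from limma. Orange marks the 10 genes with an unadjusted p under 0.05, and filled points the 25 genes whose groups did not overlap. The differences run from -1.59 (Epha7) to 2.51 (Sema3d).

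Promoter sequences are shown for members on both sides of the comparison, to show the kind of start region these genes have. RefSeq (GRCm38.p6) held promoter entries for 56 of the 64 members, with 72 start sites. Shown are the 120 bases before the start for Epha7 and for those members with a p under 0.05 whose RefSeq start lay within 25 bases of the start of the gene in GENCODE M21 and whose window touched no exon. Capitals mark the GC box GGGCGG on either strand, a motif bound by Sp family factors. Robo2, Plxnd1 and Efna2 had higher vestibular values, and Plxna3 and Epha7 higher cochlear values.
Robo2, chr16:74411826-74411945, minus strand: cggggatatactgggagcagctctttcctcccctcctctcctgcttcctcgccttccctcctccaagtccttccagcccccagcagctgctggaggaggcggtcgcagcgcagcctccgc
Plxnd1, chr6:115995006-115995125, minus strand: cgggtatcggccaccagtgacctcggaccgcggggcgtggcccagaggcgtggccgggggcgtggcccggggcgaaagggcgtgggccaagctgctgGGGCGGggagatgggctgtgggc
Efna2, chr10:80179362-80179481, plus strand: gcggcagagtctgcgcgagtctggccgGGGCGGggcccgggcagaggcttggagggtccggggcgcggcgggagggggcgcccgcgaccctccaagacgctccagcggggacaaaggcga
Plxna3, chrX:74328946-74329065, plus strand: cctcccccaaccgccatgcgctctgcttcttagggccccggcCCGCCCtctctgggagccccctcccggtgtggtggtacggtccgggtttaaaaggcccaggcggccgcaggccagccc
Epha7, chr4:28813011-28813130, plus strand: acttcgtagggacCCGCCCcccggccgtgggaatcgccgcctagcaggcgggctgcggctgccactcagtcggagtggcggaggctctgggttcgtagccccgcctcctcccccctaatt
The G and C content of these windows ran from 66.7% to 78.3%, and 4 of the 5 held 1 GC box, with none in the window of Robo2. Over the 58 windows of tested members, 72.4% held a GC box and the median G and C content was 68.3%, against 47.96% and 63.3% over the 12766 windows of all genes tested. The TATA box TATAAA was found on either strand in 3.45% of member windows and in 2.79% of those of all genes tested. Searches on both strands for the CCAAT box CCAAT, the E-box CAGGTG, the TEAD motif GGAATG and the AP-1 motif TGANTCA matched in none of the 5 windows shown, and their shares over the windows of all genes tested were 23.6%, 6.78%, 4.51% and 2.22%. A match is a description of the letters and does not show that a factor binds there.

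Among the ephrins, Efna1 had the lower vestibular level and Efna2 the lower cochlear level. Efna1, the membrane-anchored ligand first described for Epha2, had vestibular values of 19.0 and 13.3 FPKM and cochlear values of 37.0 and 42.7 FPKM. Its cochlear mean was 2.47 times the vestibular mean, a difference of -1.27 (SE 0.21, limma adjusted p 0.142). The groups did not overlap, and the difference ran from -1.51 to -1.03 when any 1 library was left out. The epithelial markers listed above also had their lowest sums in the vestibular libraries, and their part in this difference was not tested. Efna2, another anchored ephrin, had vestibular values of 3.32 and 4.16 FPKM and cochlear values of 1.87 and 1.41 FPKM, a difference of 0.85 (SE 0.21, limma adjusted p 0.209). Efna5, a ligand studied in the sorting of nerve fibres, overlapped between groups at 14.4 and 15.6 against 11.4 and 14.8 FPKM.

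Efna1 lies on chromosome 3 next to Efna3 and Efna4 on the same strand, with gaps of 32.8 kb between Efna1 and Efna3 and 10.4 kb between Efna3 and Efna4 (GENCODE M21, mm10). These neighbours did not share the pattern of Efna1. Efna4 had vestibular values of 11.2 and 9.90 FPKM and cochlear values of 9.97 and 13.6 FPKM. Efna3 stood at 4.22 and 3.98 against 3.18 and 5.85 FPKM, and the groups overlapped in both genes. Among transmembrane ephrins, Efnb2, a ligand of EphB4 in vessels and of other EphB receptors, was the highest ephrin, with vestibular values of 46.5 and 24.7 FPKM and cochlear values of 46.5 and 50.6 FPKM. Vestibular library 2 was the low value there. Efnb1 was lower, at 10.6 and 8.22 against 6.50 and 7.501 FPKM, and Efnb3 did not exceed 0.810 FPKM in any library.

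All 4 EphA receptors tested had lower means in vestibular cultures, and none had a limma p under 0.05. In 3 of them all cochlear values lay above all vestibular values, as in 28.4% of all genes. The epithelial and supporting cell marker sums were also higher in the cochlear libraries, though 3 of the 8 supporting cell genes had the reverse order. The part of these cells in the EphA values was not tested. Epha7 had vestibular values of 4.45 and 15.3 FPKM and cochlear values of 22.6 and 32.8 FPKM, the largest difference towards cochlea among the members (-1.59, SE 0.62, limma adjusted p 0.301). Vestibular library 1 held the lowest value, and the difference was -0.80 without it and -2.38 without vestibular library 2. Epha1, an epithelial receptor, stood at 7.86 and 4.61 against 9.49 and 16.1 FPKM, and Epha4, a receptor for both ephrin classes, at 4.35 and 10.2 against 11.3 and 10.4 FPKM. Epha1 overlaps the coding gene Zyx on the other strand, and the strand setting used in counting is not given. Epha2, the receptor that Efna1 binds, overlapped between groups at 16.0 and 4.80 against 9.81 and 17.8 FPKM, with vestibular library 2 the lowest. Epha3, Epha5, Epha6, Epha8 and Epha10 were not tested and did not exceed 1.29 FPKM in any library.

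The EphB receptors did not share a direction. Ephb4 was the highest Eph receptor by mean, with vestibular values of 21.2 and 26.1 FPKM and cochlear values of 22.7 and 31.9 FPKM, and its groups overlapped. It overlaps the coding gene Zan on the other strand. Ephb3 stood at 10.5 and 5.88 against 12.05 and 14.5 FPKM (difference -0.68, SE 0.31, limma adjusted p 0.346). Ephb6, a receptor without kinase activity, had the opposite order, at 6.43 and 5.75 against 3.15 and 4.14 FPKM (difference 0.62, SE 0.18, limma adjusted p 0.235). Ephb2 was highest in vestibular library 1, at 18.5 and 3.02 against 3.36 and 8.78 FPKM. Ephb1 was not tested, with vestibular values of 1.01 and 1.86 FPKM and cochlear values of 0.414 and 0.182 FPKM.

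**Figure D2:**
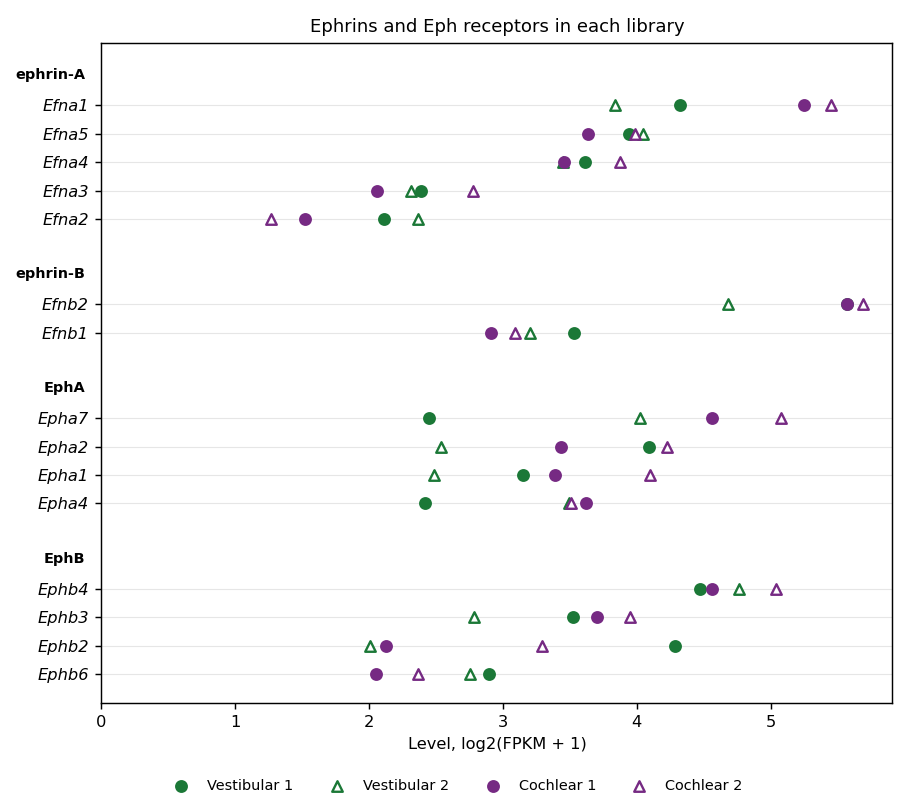
Level on the log2(FPKM + 1) scale of each ephrin and Eph receptor tested, in the 4 libraries (green vestibular, purple cochlear, circles library 1, triangles library 2). Efna1 and Epha7 show both green points left of both purple points, and Efna2 and Ephb6 show the reverse.

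Of the 5 secreted class 3 semaphorins tested, 4 had higher mean log2 levels in vestibular cultures. Sema3d had vestibular values of 47.8 and 212 FPKM and cochlear values of 20.1 and 14.2 FPKM. The groups did not overlap, and vestibular library 2 stood far above the other 3. The difference was 2.51 (SE 0.80, limma adjusted p 0.254), and it was 1.45 without vestibular 2 and 3.57 without vestibular 1. Vestibular 2 also held the highest sum of cartilage markers and, for 5 melanocyte markers, a sum of 223 FPKM against 4.76 to 9.94 in the other libraries, and the part of these cells in the Sema3d value was not tested. Sema3e, the ligand of plexin D1, stood at 23.4 and 12.9 against 7.70 and 11.9 FPKM (difference 0.80, SE 0.38, limma adjusted p 0.360), with the groups just apart.

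The other class 3 members overlapped between groups. Sema3c had vestibular values of 62.8 and 22.8 FPKM and cochlear values of 15.2 and 45.7 FPKM, and the spread within each group exceeded the difference of 0.50. Sema3b and Sema3f lie next to each other on chromosome 9, with a gap of 72.3 kb. Sema3b stood at 40.4 and 21.5 against 24.9 and 31.9 FPKM, and Sema3f at 29.4 and 18.3 against 26.4 and 50.5 FPKM. Sema3a, the semaphorin best known for collapsing sensory growth cones, was not tested, with vestibular values of 1.57 and 0.985 FPKM and cochlear values of 0.650 and 0.334 FPKM. Sema3g did not exceed 0.361 FPKM.

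Of 11 semaphorins of classes 4 to 7 that were tested, 9 had lower mean log2 levels in vestibular cultures. In 4 of them (36.4%, against 28.4% of all genes) all cochlear values lay above all vestibular values. Sema6a, a transmembrane ligand of A-type plexins, was the one with a p under 0.05. It had vestibular values of 2.099 and 0.873 FPKM and cochlear values of 4.72 and 4.22 FPKM (difference -1.18, SE 0.31, limma adjusted p 0.220). Sema4g, Sema4b and Sema6c were the other 3 without overlap, with differences of -0.42, -0.31 and -0.03. Sema5a was the highest of these classes, at 10.7 and 24.3 FPKM against 20.3 and 23.4, with vestibular 1 the low value. Sema4d, the ligand of plexin B1, stood at 17.7 and 16.1 against 19.9 and 10.5 FPKM. Sema6d was lowest in vestibular 1, at 5.72 and 19.2 against 14.7 and 19.9 FPKM. Of the rest, Sema4c stood at 12.6 and 10.5 against 13.0 and 12.5 FPKM, Sema6b was lowest in vestibular 2, at 4.75 and 2.03 against 4.66 and 4.73 FPKM, and Sema4a was lowest in cochlear 2, at 4.06 and 2.02 against 3.47 and 0.858 FPKM. Sema4f and Sema5b were not tested and did not exceed 1.203 and 0.166 FPKM.

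Neuropilins were abundant and overlapped between groups. Nrp1 had vestibular values of 58.6 and 76.5 FPKM and cochlear values of 74.6 and 45.5 FPKM. Nrp2 stood at 32.2 and 21.2 against 24.0 and 6.63 FPKM, with cochlear library 2 apart from the other 3. Its difference was 0.97 (SE 0.67, limma adjusted p 0.486) and 0.12 without cochlear 2.

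The plexins differed among themselves in direction and in level. Plxnb2, the highest plexin and the highest member over the 4 libraries, had vestibular values of 117 and 112 FPKM and cochlear values of 121 and 112 FPKM, a difference of -0.02 (SE 0.11). Plxnb1, the receptor of Sema4d, stood at 11.9 and 9.49 against 11.998 and 16.04 FPKM, with the groups just apart, and Plxnb3 was not tested and did not exceed 0.612 FPKM. Plxnd1, which binds Sema3e, stood at 17.7 and 27.1 against 9.99 and 8.10 FPKM, without overlap (difference 1.197, SE 0.26, limma adjusted p 0.187). Its difference ran from 0.90 to 1.49 when any 1 library was left out. Sema3e and Plxnd1, ligand and receptor, both had all vestibular values above all cochlear values, as did 26.9% of all genes. The nearest Sema3e values were 12.9 FPKM in vestibular 2 and 11.9 FPKM in cochlear 2 (limma p 0.108).

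A-type plexins, the signalling partners of neuropilins, went in both directions. Plxna4 had vestibular values of 1.90 and 4.62 FPKM and cochlear values of 0.753 and 0.226 FPKM (difference 1.46, SE 0.44, limma adjusted p 0.242). Plxna3 stood at 6.59 and 4.71 against 9.26 and 9.04 FPKM (difference -0.62, SE 0.19, limma adjusted p 0.244). The most abundant A-type plexin, Plxna1, stood at 35.2 and 44.1 against 29.3 and 29.8 FPKM (difference 0.40, SE 0.15, limma adjusted p 0.285). Plxna2 overlapped at 12.4 and 28.3 against 18.5 and 20.6 FPKM. These 4 receptors share ligands. All vestibular values exceeded all cochlear values in 2 of them, as in 26.9% of all genes. The reverse held in 1, as in 28.4% of all genes.

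Plxnc1, the receptor of Sema7a and also a gene of myeloid cells, had vestibular values of 10.3 and 8.96 FPKM and cochlear values of 7.53 and 0.0923 FPKM, so cochlear library 2 stood apart. The difference was 1.80 (SE 1.10, limma adjusted p 0.447), and 0.32 without cochlear 2. The macrophage marker sum was 22.8 FPKM in cochlear 2 and at least 6054 in each other library, and its part in the Plxnc1 value was not tested. None of the 10 macrophage markers was at 0 in all libraries. Sema7a, its ligand, stood at 9.56 and 2.46 against 4.24 and 6.56 FPKM.

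**Figure D3:**
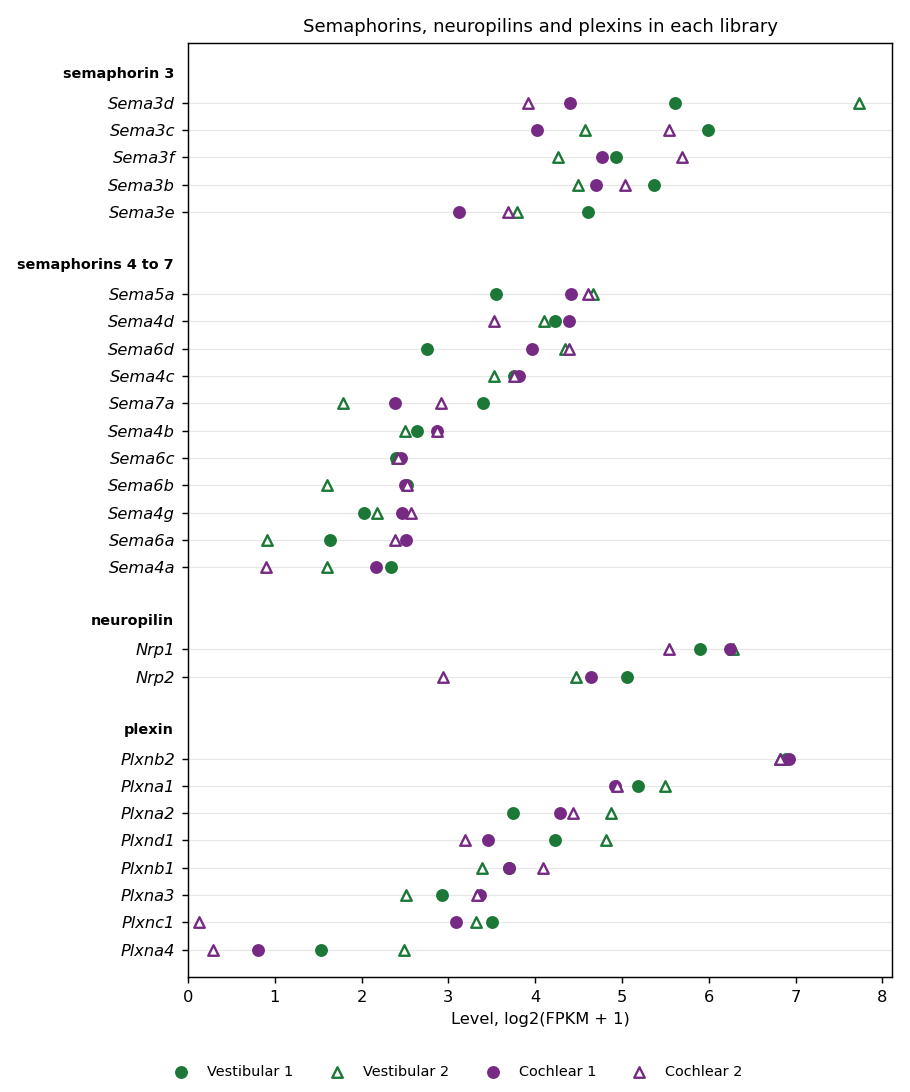
Level on the log2(FPKM + 1) scale of each semaphorin, neuropilin and plexin tested, in the 4 libraries (green vestibular, purple cochlear, circles library 1, triangles library 2). Plxnb2 has its 4 points together, Plxnd1 and Sema3d have both green points on the right, and Plxnc1 has cochlear library 2 alone near 0.

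Slit3 and Robo2, a secreted repellent and a receptor of its family, had the 2 lowest p-values among the members. Slit3 had vestibular values of 8.59 and 7.65 FPKM and cochlear values of 2.04 and 1.81 FPKM. Its vestibular mean was 4.22 times the cochlear mean, a difference of 1.64 (SE 0.15, limma adjusted p 0.0914), and libraries of a group lay close together. The fibroblast marker sum was also higher in both vestibular libraries, and its part in the difference was not tested. Over the 12 alternatives its adjusted p ran from 0.0865 to 0.542. Robo2 stood at 14.8 and 11.9 FPKM against 4.59 and 5.65 FPKM, again without overlap (difference 1.23, SE 0.18, limma adjusted p 0.128). Slit3, Robo2 and Efna1 had an unadjusted p under 0.05 in all 12 alternatives. In the 4 that left out 1 library, a group had 1 library and the spread came from the other group, so those 4 p-values say little about stability. Slit3 lies on chromosome 11 at 35121224 to 35708507, plus strand, and Robo2 on chromosome 16 at 73891839 to 74411825, minus strand (mm10, GENCODE M21, both protein-coding).

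The other Slits had the same order of groups. Slit2, the best studied of the Slits, had vestibular values of 12.7 and 44.3 FPKM and cochlear values of 9.51 and 8.36 FPKM, without overlap but with vestibular library 2 far above the rest (difference 1.33, SE 0.64, limma adjusted p 0.366). Without vestibular 2 its difference was 0.47. Slit1 was not tested, with vestibular values of 1.499 and 0.618 FPKM and cochlear values of 0.569 and 0.126 FPKM. Robo1 overlapped between groups, at 16.1 and 11.7 against 11.1 and 19.6 FPKM. Robo3 and Robo4, neighbours on chromosome 9, did not exceed 0.319 and 0.0259 FPKM, and Robo4 is known as an endothelial gene.

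Netrins were led by Ntn4, a netrin of basement membranes, with vestibular values of 25.4 and 111 FPKM and cochlear values of 13.1 and 7.29 FPKM. The groups did not overlap, and vestibular 2 was 4.38 times vestibular 1. The difference was 2.34 (SE 0.82, limma adjusted p 0.276) and 1.29 without vestibular 2. Ntn1, the classic chemoattractant and a gene of semicircular canal formation, stood at 37.8 and 7.85 against 4.61 and 17.2 FPKM, with overlapping groups and its highest value in vestibular library 1. Ntn3 stood at 2.80 and 3.71 against 2.03 and 2.23 FPKM, and Ntn5 did not exceed 0.405 FPKM. Ntn3 overlaps the coding gene Tbc1d24 on the same strand.

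Netrin receptors lie outside the member rule and are given from a list of 66 related guidance genes. Neo1, which encodes neogenin, had vestibular values of 45.2 and 79.2 FPKM and cochlear values of 36.8 and 36.0 FPKM (difference 0.70, limma adjusted p 0.334). Unc5b was highest in vestibular 2, at 11.7 and 43.3 against 12.2 and 9.23 FPKM. Unc5c stood at 3.58 and 3.23 against 0.660 and 1.53 FPKM (difference 1.10, limma adjusted p 0.216). Dcc, Unc5a and Unc5d did not exceed 0.673, 0.15 and 0.825 FPKM.

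**Figure D4:**
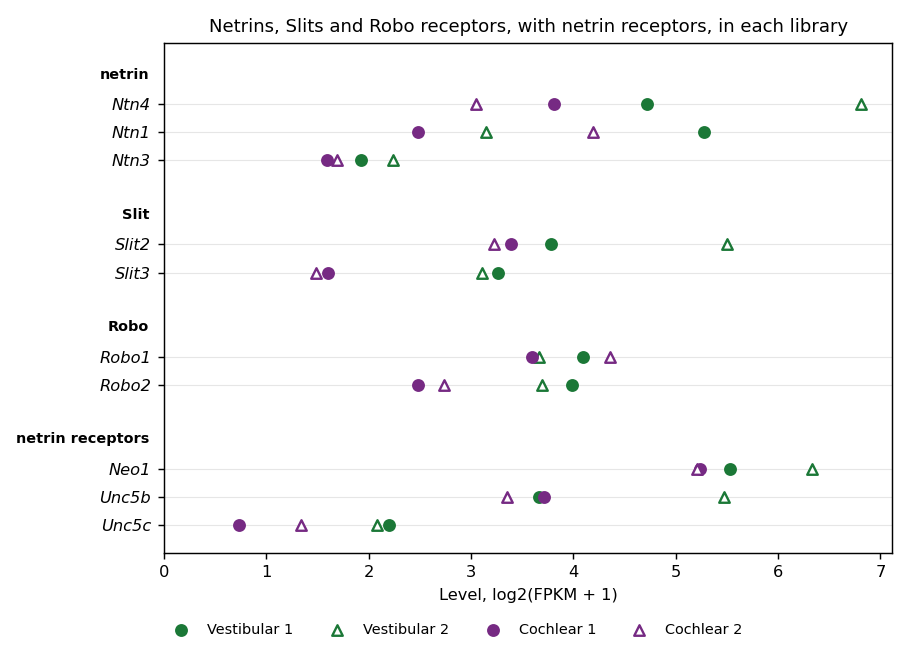
Level on the log2(FPKM + 1) scale of the netrins, Slits and Robo receptors tested and of the netrin receptors Neo1, Unc5b and Unc5c, in the 4 libraries (green vestibular, purple cochlear, circles library 1, triangles library 2). Slit3 and Robo2 show tight pairs with the groups apart, whereas Ntn4, Slit2 and Unc5b have vestibular library 2 alone on the right.

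In several members 1 library stood apart from the other 3. A description made after the values were seen counted members in which 1 library lay at least 2-fold above or below each of the other 3 on FPKM + 1, and it found 9 of 48 (18.8%, against 10.6% of all genes). Vestibular 2 was alone above for Sema3d, Ntn4 and Slit2 (3 members, 6.25%, against 2.06% of all genes). Vestibular 1 was alone below for Epha4, Epha7 and Sema6d (3 members, 6.25%, against 0.462%) and alone above for Ntn1 (1 member, 2.08%, against 0.947%). Cochlear 2 was alone below for Nrp2 and Plxnc1 (2 members, 4.17%, against 3.67%). No member was alone in cochlear 1, and no member was alone below in vestibular 2 or above in cochlear 2. Of these 9 members, Sema3d was the one with a limma p under 0.05 between groups.

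The groups did not overlap in the summed levels of 7 of the 11 classes, 4 with the vestibular and 3 with the cochlear libraries above. Such separation was common, at 55.3% of all single genes, and no share was made for sums of other genes. The count therefore does not mark out these classes. The EphA receptors summed to 33.3 and 36.6 against 53.9 and 78.9 FPKM, and the ephrin-A ligands to 52.1 and 46.9 against 63.4 and 78.4 FPKM. In both classes the cochlear libraries lay above the vestibular ones, as they did for semaphorins of classes 4 to 7, at 81.0 and 90.7 against 101 and 99.5 FPKM. Class 3 semaphorins summed to 206 and 289 against 95.1 and 155 FPKM, netrins to 66.4 and 123.35 against 19.8 and 26.9 FPKM, and Slits to 22.8 and 52.6 against 12.1 and 10.3 FPKM, with the vestibular libraries above. Some of these sums rest on 1 gene. In a description chosen after the values were seen, leaving out the most abundant member of each class made the groups overlap in 3 of the 7 classes. The ephrin-A sums were 33.1 and 33.6 against 26.4 and 35.7 FPKM without Efna1, the class 3 semaphorin sums were 158 and 76.6 against 74.99 and 140.4 FPKM without Sema3d, and the netrin sums were 41.0 and 11.9 against 6.69 and 19.6 FPKM without Ntn4. The Slit sums without Slit2 were 10.1 and 8.27 against 2.61 and 1.93 FPKM, and the groups stayed apart for the EphA receptors, class 4 to 7 semaphorins and plexins too. Plexins were the largest or second largest class in every library, with sums of 214 and 240 against 209 and 196 FPKM. Ephrin-B ligands, EphB receptors, neuropilins and Robo receptors overlapped between groups. The same step set the groups apart for ephrin-B ligands and Robo receptors, with the vestibular libraries above. The ephrin-B sums were 11.02 and 9.003 against 7.09 and 8.31 FPKM without Efnb2. The Robo sums were 14.99 and 11.98 against 4.63 and 5.97 FPKM without Robo1. EphB receptors without Ephb4 and neuropilins without Nrp1 still overlapped. The sums are descriptions, given without a test.

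**Figure D5:**
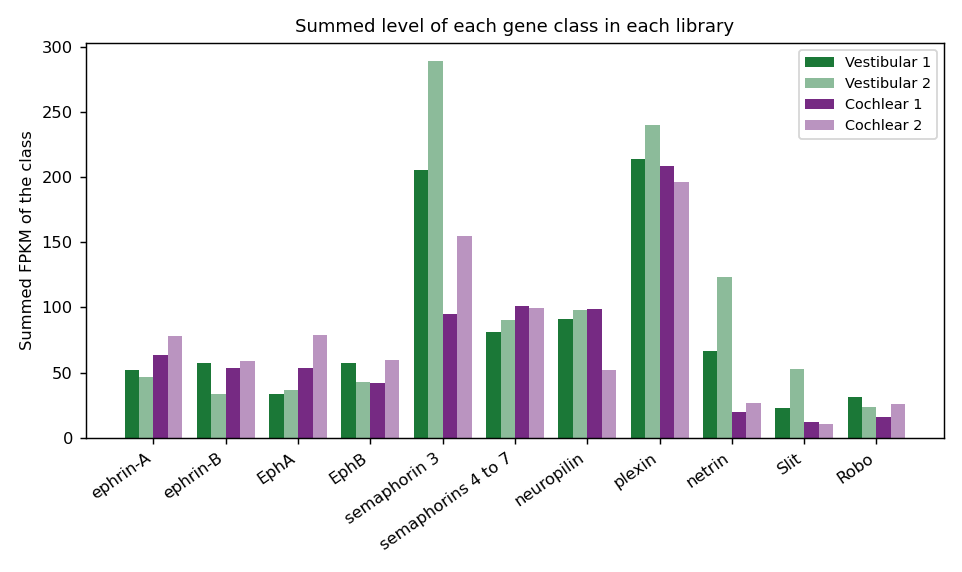
Summed FPKM of the members of each class in each library (bars start at 0, green vestibular, purple cochlear, lighter bars library 2). The netrin bars stand at 66.4 and 123.35 against 19.8 and 26.9 FPKM, and the EphA bars at 33.3 and 36.6 against 53.9 and 78.9 FPKM.

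Genes that carry these signals inside the cell did not follow a common direction. Of the 66 listed genes (receptors and ligands outside the member rule, adaptors and other proteins), 54 were tested and none passed the adjusted threshold in limma. At an unadjusted limma p under 0.05, 6 had a higher vestibular level and 8 a higher cochlear level (11.1% and 14.8%, against 7.61% and 10.6% of all genes). Without vestibular library 1 there were 9 and 5 (16.7% and 9.26%, against 9.50% and 11.1% of all genes). Without vestibular 2 there were 2 and 5 (3.70% and 9.26%, against 5.17% and 8.17%), and without cochlear 2 there were 4 and 4 (7.41% each, against 2.86% and 4.85%). The median difference of the listed genes was 0.10. By group, with all libraries, the counts were 0 and 4 of 17 semaphorin and plexin genes (0% and 23.5%). They were 0 and 2 of 9 Slit and Robo partners (0% and 22.2%) and 4 and 1 of 20 ephrin and Eph genes (20% and 5%). For netrin and repulsive guidance genes they were 2 and 1 of 8 (25% and 12.5%). Farp1, a gene linked to plexin A signalling, had vestibular values of 15.9 and 16.9 FPKM and cochlear values of 38.3 and 35.2 FPKM (difference -1.12, SE 0.11, limma adjusted p 0.0914). Plxdc2, a transmembrane protein with a plexin-like domain, stood at 24.8 and 25.9 against 49.9 and 45.4 FPKM (difference -0.88, SE 0.11, limma adjusted p 0.111). Srgap3, a GTPase-activating protein of the Slit and Robo pathway, stood at 13.1 and 15.1 against 20.0 and 24.0 FPKM, opposite in order to Slit3 and Robo2, and Rgmb, a ligand of neogenin, at 23.7 and 23.1 against 31.5 and 39.4 FPKM. Abl1, a kinase that acts downstream of Robo and Eph receptors, was the one of the 6 with a mean of at least 10 FPKM. It stood at 30.2 and 29.0 against 24.8 and 23.4 FPKM (difference 0.29, SE 0.10, limma adjusted p 0.271). Below that mean, larger differences were found in both directions. Srgap1, a Slit and Robo partner, stood at 2.17 and 1.26 against 8.37 and 7.47 FPKM (difference -1.74, SE 0.23, limma adjusted p 0.120). Rgs3, of the ephrin and Eph group, stood at 11.8 and 10.6 against 4.77 and 3.65 FPKM (difference 1.23, SE 0.17, limma adjusted p 0.122).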

How the data were processed

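RNA of 4 mouse inner ear cultures (2 vestibular, 2 cochlear, grouped by the cell type label) was sequenced after a stranded mRNA library kit, per the labels' protocols. The deposited values are FPKM per gene symbol and library, computed by the authors, per the file headers. The submitters' processing notes list Cuffdiff 2.2.1, TopHat2 2.1.1, SAMtools 0.1.18 and Bowtie2 2.2.8 with build mm10. The sources used here do not give settings, annotation, strand use or scaling between libraries. FPKM holds no fragment number. Among short noncoding RNA genes the most common ratio of values between vestibular 1 and cochlear 2 was 1.16 (8 of 34 genes, within 0.1%). This was the widest of the pairs with vestibular 1. Between cochlear 1 and cochlear 2 the most common ratio was 2.05 (4 of 28 genes). Each ratio rests on few genes, and no counting interval was made. Rpl26, a ribosomal gene, is listed at 0 in all libraries, so a listed 0 is not read as absence.

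Values were taken as log2(FPKM + 1), and genes whose average reached 1 FPKM were fitted with limma 3.58.1 in R 4.3.3 (trended eBayes, 2-sided, Benjamini-Hochberg over 13200 genes, threshold 0.05, 1.71 prior degrees of freedom). The fit was tested on simulated data. Alternatives changed the pseudocount, filter, scaling, variance trend, replicate block and libraries used. The member rule reads symbols alone, but members and lists were chosen with earlier results of these data known. Named with all values are members with an unadjusted p under 0.05, those without overlap and with a difference of at least 1, and the 1 or 2 most abundant of each class (the second only from 10 FPKM). From the related guidance list, up to 4 genes per direction with p under 0.05 and at least 10 FPKM are named, with the netrin receptors. Srgap1 and Rgs3, below 10 FPKM, were added after the values were seen. Other genes are given by value to complete their family. Positions came from GENCODE M21 (64 of 64 members found) and promoters from RefSeq.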

Additional observations from a re-analysis of the deposited data

How the results depend on the processing

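No member passed the adjusted threshold in any of the 12 alternatives. The 7 members with a limma p under 0.05 and a higher vestibular level numbered 4 at a minimum mean of 5 FPKM (38 members tested), and 3 to 10 when 1 library was left out. At the minimum mean of 5 FPKM, those 4 were 10.5% of the 38 members, against 7.71% of all genes. The 3 with a higher cochlear level numbered 2 at that minimum (5.26%, against 10.95% of all genes). Member counts with 1 library left out are given above with their shares. Labels number the libraries 1 and 2 in each group but do not say what a number shares. Deviations of same-numbered libraries correlated at 0.04 over 13200 genes, and with the replicate block 4 members had a p under 0.05 and a higher vestibular level and 4 a p under 0.05 and a higher cochlear level (8.33% each, against 5.98% and 8.32% of all genes). Of the related guidance genes, those with a p under 0.05 and a higher vestibular level numbered 3 after quantile normalization, and 2 to 9 (vestibular) and 4 to 7 (cochlear) when 1 library was left out. After quantile normalization those 3 were 5.56% of the related guidance genes tested, against 7.60% of all genes. The share with a higher cochlear level was 14.8% in that setting, against 10.1% of all genes. The median difference of the members ran from -0.12 to 0.12 when 1 library was left out (0.12 without vestibular 2). It was 0.02 with no filter and 0.01 after upper-quartile scaling. Signs of differences turned in 13 cases, the largest of them for Ntn1 (0.87, and -0.19 without vestibular 1). After upper-quartile scaling the difference of Plxnb2 was 0.016. Over the omissions of 1 library the ranges were -1.29 to 0.26 for Epha2, -0.43 to 0.053 for Ephb4, -0.26 to 1.26 for Sema3c, -0.22 to 0.64 for Sema4d, -0.96 to 0.15 for Sema5a, -0.15 to 0.55 for Nrp1, -0.074 to 0.037 for Plxnb2, -0.19 to 1.94 for Ntn1 and -0.48 to 0.28 for Robo1. The causes were not tested. The fragment number of each library is not known, so precision at low FPKM cannot be given.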
